A study of Felis catus with 12 samples.

Results

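The genes described here are a set of 41 genes of autophagy, mitophagy and the lysosome, which were listed by name from their known functions and from LRRK2, a kinase gene that the study names. The study names LRRK2 among genes of protein breakdown and stress pathways linked to larger nuclei, a trait not analysed here. Of the 41 genes, 40 had a row among the 30785 genes of the table, and CTSL, which encodes cathepsin L, was not analysed here. A total of 39 genes passed the filter on low values, as did 8715 genes of the whole table; it asked for 10 reads or more in 3 or more libraries among the 10 whose outcome is known. ATG14 was the gene that failed it, with 2 to 11 reads per library.

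The tissue was left ventricular myocardium that had been collected after death from domestic cats, most of which died with naturally occurring cardiac disease, and its RNA was read on Oxford Nanopore flow cells by direct sequencing, where RNA molecules are read without being copied into cDNA. There were 12 libraries, 1 per cat, with 4 libraries on each of 3 flow cells. Flow cell A held cats 11, 23, 30 and 31, flow cell B held cats 10, 15, 35 and 36, and flow cell C held cats 22, 29, 37 and 38. By the study's cohort list, 6 of the cats had congestive heart failure (HF), 3 had arterial thromboembolism (ATE, a clot lodged in an artery) and 1 had no known cardiac death. The study's figure legends describe the ATE group as HF with ATE, so ATE against congestive HF is not a contrast of cats without and with HF. Cats with congestive HF were 11, 30 and 31 on flow cell A, 15 and 35 on flow cell B and 37 on flow cell C, whereas each flow cell held 1 cat with ATE (cats 23, 10 and 38). Cat 36 was the cat without known cardiac death. The libraries that carry the numbers of cats 22 and 29 are not among the sequenced cats that the study lists, so their outcome was taken as unknown and they entered the comparison of flow cells but no comparison of a trait. An age was given for 9 of the 10 cats of known outcome and a myocardial fibrosis percentage for 8. The cats were patients of several breeds and ages, not an experimental line, and with 1 cat without known cardiac death no group free of cardiac disease could be compared.

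Autophagy is the process by which a cell encloses part of its own content in a double membrane, the autophagosome, and delivers it to the lysosome for breakdown. The ULK1 and PIK3C3 complexes start the membrane, a ubiquitin-like conjugation system attaches proteins of the ATG8 family (LC3 and GABARAP) to it, cargo receptors tie the load to ATG8 proteins, and lysosomal enzymes digest what arrives. Mitophagy is the same process directed at mitochondria, which are abundant in heart muscle, and loss of the lysosomal enzyme encoded by GAA or of the membrane protein encoded by LAMP2 is a known cause of glycogen storage or vacuolar disease with cardiomyopathy.

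The libraries had 789257 to 2263110 reads on genes, and cat 11 had the most. The deposited value of a gene is its reads divided by 1 size factor per library (0.699 to 2.07), so 1 read was worth 0.483 to 1.43 units of this value, and the values below are on this scale unless log2 is stated. Values were not divided by gene length and are compared between libraries, not between genes. Of 10 genes that mark cardiomyocytes, 9 had a row, and MYH7 had none under this name. The summed share of the 9 was 10.46% to 16.1% of a library, which covers only part of the markers. MYL2 had the most reads of them (median 104294), followed by MYL3 (median 19354.5). Markers of lymphocytes, adipocytes and erythrocytes took at most 0.00104%, 0.000973% and 0.00451%. Of 5 listed for each, 5, 4 and 2 had a row. FABP4 of adipocytes and HBB, HBA1 and HBA2 of erythrocytes had none under these names, so these 2 shares cover only part of the markers. Among the lymphocyte markers, CD3D and MS4A1, which define T and B cells, had 0 reads in every library. CD3E, CD79A and CD2 had at most 7, 9 and 2 reads in a library. In bulk tissue, fewer cells of a type and less RNA per cell cannot be told apart.

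Together the 40 genes took between 0.369% of the reads on genes, in cat 11, and 0.630%, in cat 35, with a median of 0.490%. Cat 31 was next lowest at 0.405%, and the other 10 libraries lay between 0.450% and 0.630%. Cat 11 held the lowest value of 15 of the 39 tested genes, where 13.46% of all tested genes had their lowest value in that library. Depth differed widely within the set: the median over libraries ran from 5.5 reads (CTSA) to 612 reads (GABARAP), 15 genes had a median of at least 100 reads, and 7 had one under 20. Counting error therefore differs from gene to gene, and for genes under 20 reads a change of a few reads moves the value strongly.

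**Figure D1:**
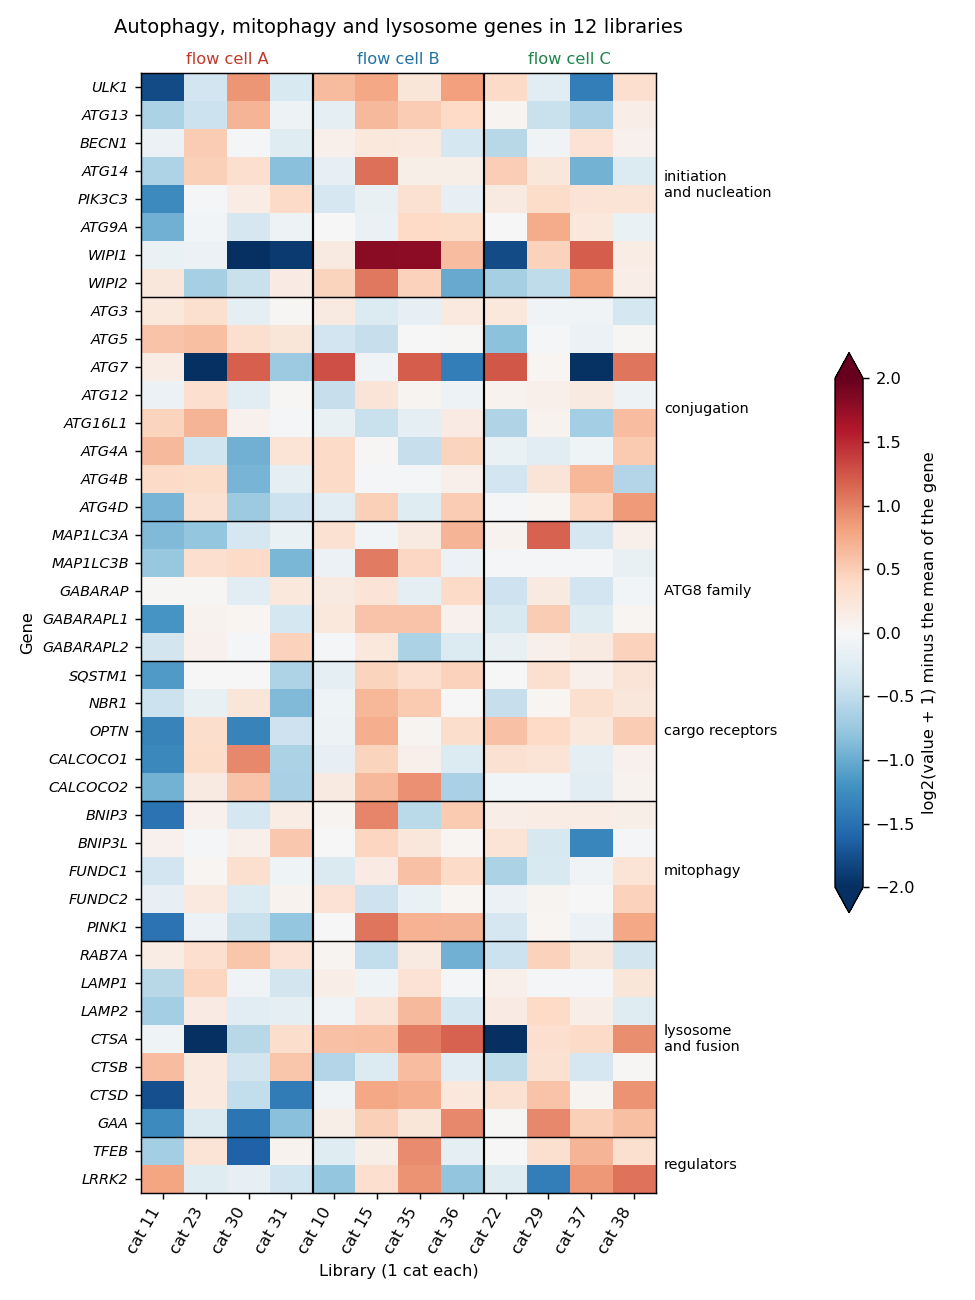
Heat map of log2(value + 1) minus the mean of each gene over 12 libraries (columns, grouped by flow cell), for the 40 genes with a row, ordered by role. Red is above and blue below the mean of the gene, with colours saturated at 2 log2 units; the column of cat 11 is blue for all 5 cargo receptors and holds the lowest value of 15 of the 39 tested genes.

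The spread between cats was compared with the spread that counting reads alone would give. The coefficient of variation (CV, the SD as a percentage of the mean over 12 libraries) of the 39 tested genes ran from 14.97% for ATG12 to 84.3% for WIPI1, with a median of 31.4%. Divided by the CV of counting error, the median ratio was 2.54, against 2.12 over all 8715 tested genes, and 24 of 39 (61.5%) had a ratio above 2, against 55.7% of all tested genes. The ratio depends on depth, since a deeply read gene has little counting error. The genes with the largest ratios were PINK1 (observed CV 47.0%, counting CV 4.27%, ratio 11.0), MAP1LC3A (observed CV 43.6%, counting CV 4.27%, ratio 10.2), CTSD (ratio 9.75), MAP1LC3B (ratio 6.92) and ATG4D (ratio 6.18). PINK1 encodes a kinase that accumulates on damaged mitochondria, and its value ran from 181 in cat 11 to 1055 in cat 15. MAP1LC3A, an LC3 gene, ran from 281 in cat 11 to 1173 in cat 29, and ATG4D, a protease gene of the ATG8 cycle, from 148 in cat 11 to 510.4 in cat 38. GABARAP and FUNDC2 were read about as deeply and varied less (observed CV 17.5% and 17.0%). At the other end, ATG12 and ATG3, which take part in the conjugation system, were close to counting error (ratios 1.21 and 1.35).

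**Figure D2:**
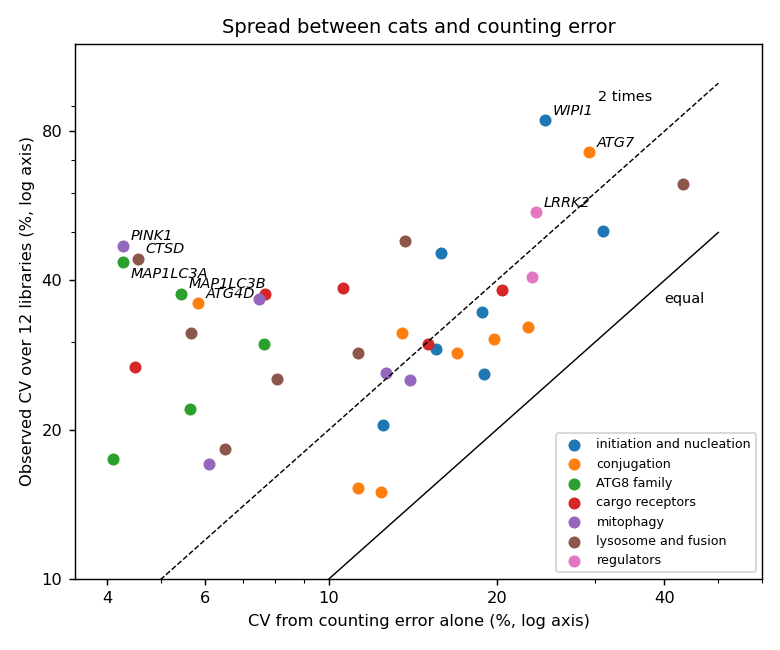
Observed CV over 12 libraries against the CV that counting error alone gives, in percent on log axes, for the 39 tested genes coloured by role. The solid line marks equal values and the dashed line an observed CV of 2 times the counting CV; PINK1, MAP1LC3A, CTSD, MAP1LC3B and ATG4D lie farthest above the lines, and 24 of 39 genes lie above the dashed one.

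The labels group the libraries only by flow cell, and flow cell A was compared with flow cells B and C by limma over all 8715 tested genes. Earlier results of these same data had shown flow cell A apart from the others, so the contrast was not chosen blind. Its p-values are not adjusted for that choice. Of the 39 genes, 4 fell in flow cell A at an adjusted p under 0.05 and none rose: GAA, CTSD, PINK1 and OPTN. Over all tested genes, 3.61% were called lower and 1.84% higher in flow cell A, and 22% had an unadjusted p under 0.05. The median log2 difference of the 39 genes was -0.28, with 29 negative and 10 positive, against a median of 0.03 over all tested genes, and 10 genes had an unadjusted p under 0.05 with a negative sign and 1, ATG5, with a positive sign. In 1 gene, GAA, all 4 libraries of flow cell A lay below the other 8, and in 1, ATG5, all 4 lay above them, where 2.51% and 1.72% of all tested genes were separated in these directions.

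GAA encodes acid alpha-glucosidase, which breaks down glycogen in the lysosome. Its value in flow cell A was 19.3 in cat 11, 39.0 in cat 23, 16.8 in cat 30 and 26.3 in cat 31. In flow cell B it was 51.9, 66.7, 56.7 and 94.4 for cats 10, 15, 35 and 36, and in flow cell C it was 48.6, 94.2, 67.2 and 73.5 for cats 22, 29, 37 and 38. The highest library of flow cell A thus lay below the lowest of the others, and the means were 25.4 ± 9.92 (SD, n = 4) and 69.2 ± 17.6 (SD, n = 8) (log2 difference -1.45, SE 0.27, limma adjusted p = 0.00857). These values rest on 20 to 106 reads per library. CTSD encodes cathepsin D, a major aspartic protease of the lysosome. It had values of 128 in cat 11, 498 in cat 23, 309 in cat 30 and 164 in cat 31, against 414, 750.2, 719 and 507 in flow cell B and 541, 648, 454 and 813 in flow cell C in the same order of cats. Cat 23 lay among the other 8 libraries, so the groups overlapped, while the other 3 libraries of flow cell A lay below all of them (log2 difference -1.30, SE 0.31, limma adjusted p = 0.0228).

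PINK1 had values of 181 in cat 11, 465 in cat 23, 369.5 in cat 30 and 293 in cat 31, against 504, 1055, 818 and 809 in flow cell B and 398, 515, 464 and 860.4 in flow cell C. Cat 11 was lowest, and cat 23 in flow cell A lay above cats 22 and 37 in flow cell C (log2 difference -1.05, SE 0.27, limma adjusted p = 0.0341). OPTN encodes optineurin, a cargo receptor of mitophagy that binds ubiquitin and LC3. Its values were 62.3 in cat 11, 201 in cat 23, 62.3 in cat 30 and 118 in cat 31, against 148, 261, 165 and 203 in flow cell B and 239, 208, 183 and 226 in flow cell C. Cats 11 and 30 were below every other library, cat 31 was next, and cat 23 lay within the range of the others (log2 difference -1.03, SE 0.28, limma adjusted p = 0.0439).

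**Figure D3:**
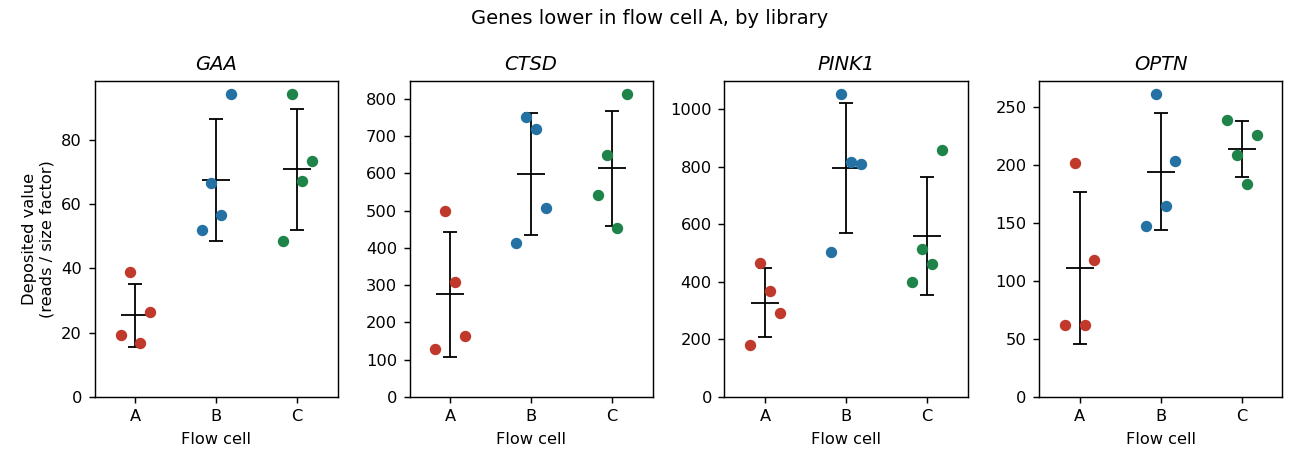
Deposited values (reads divided by a size factor) of GAA, CTSD, PINK1 and OPTN in the 4 libraries of each flow cell, with the mean and SD of each flow cell as bars. For GAA, flow cell A ran from 16.8 to 39.0 and lay below the other 8 libraries, which ran from 48.6 to 94.4; for the other 3 genes cat 23 of flow cell A lies within or near the range of the others.

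These calls depended on single libraries. Without cat 11, limma called 0 of 39 genes (log2 differences of -1.34 for GAA, -1.004 for CTSD, -0.80 for PINK1 and -0.81 for OPTN, adjusted p = 0.0503, 0.123, 0.162 and 0.202). Over all tested genes, that fit called 36 lower and 11 higher. Without cat 31 only GAA was called, and without cat 15, 36, 29 or 38 GAA and CTSD were. GAA was called in the 11 fits that left out a cat other than cat 11. edgeR's quasi-likelihood test on the recovered reads called GAA and PINK1, and DESeq2 called the 4 genes with MAP1LC3A and WIPI1, all lower in flow cell A. Among the cats with congestive HF alone, 0 of 39 genes were called, against 0 lower and 1 higher over all tested genes, and the log2 difference of GAA was -1.61. Every cat was on 1 flow cell, so the flow cell and the cats on it cannot be told apart.

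Markers of other cells differed between the same libraries. Markers of smooth muscle and pericytes took 0.0433% to 0.107% of the reads in flow cell A and 0.00916% to 0.0298% in the other 8 libraries, without overlap. Of 5 tested, 2 (TAGLN and CNN1) were called higher, and they reached the most reads in a library (1542 and 551). ACTA2, PDGFRB and RGS5 were not called (log2 differences 0.36, 0.43 and 0.03), so this share is not a measure of the cell type as a whole. Fibroblast markers took 0.0950% to 0.310% and 0.0208% to 0.152%, and 4 of 7 were called higher. Cardiomyocyte markers took 10.46% to 14.7% and 10.501% to 16.1%, and 5 of 9 were called lower. None of 6 endothelial and 8 macrophage markers was called by limma, and macrophage markers were highest in cat 35 (0.132%). The part of these cells in the lower values of GAA, CTSD, PINK1 and OPTN was not tested.

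**Figure D4:**
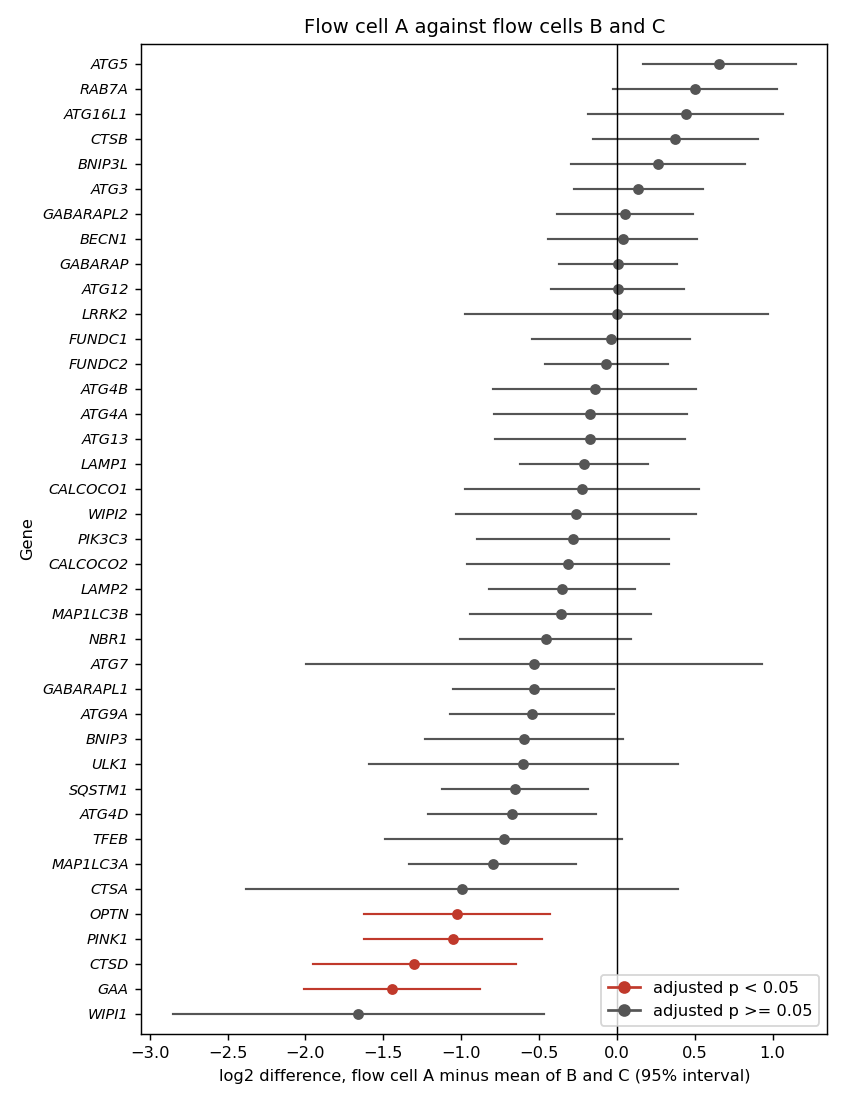
Log2 difference between flow cell A and the mean of flow cells B and C for the 39 tested genes, ordered by size, with 95% intervals from limma; red marks an adjusted p under 0.05. The 4 red genes (GAA, CTSD, PINK1 and OPTN) lie at -1.45 to -1.03, and 29 of 39 genes lie below 0.

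Among the 7 tested genes of initiation and nucleation, limma called none between flow cell A and the others, 6 had a negative log2 difference, and 2 had an unadjusted p under 0.05 (WIPI1 and ATG9A, both lower), of which DESeq2 called WIPI1. WIPI1, which binds phosphoinositide on the forming membrane, had the largest difference of the set and also the largest spread: its values were 10.6 in cat 11, 10.7 in cat 23, 1.68 in cat 30 and 2.39 in cat 31, 13.53, 43.6, 43.3 and 18.7 in flow cell B and 2.70, 16.6, 28.6 and 13.2 in flow cell C (log2 difference -1.66, SE 0.56, limma adjusted p = 0.0939). Cats 30, 31 and 22 were at 1.68 to 2.70 and cats 15 and 35 at 43.3 to 43.6, and the values rest on 2 to 55 reads. ATG9A, a membrane protein of vesicles that feed the autophagosome, was at 20.3 to 39.0 in flow cell A and 36.8 to 68.7 in the others (log2 difference -0.55, SE 0.25, limma adjusted p = 0.212). ULK1, the initiating kinase, rested on 2 to 21 reads and was at 1.93 to 17.7 in flow cell A and 2.86 to 16.9 in the others. ATG13, a partner of ULK1, and WIPI2 overlapped fully between the groups, with log2 differences of -0.17 and -0.26. BECN1 and PIK3C3, the beclin and lipid kinase subunits of the nucleation complex, had log2 differences of 0.04 (95% interval -0.44 to 0.51) and -0.28 (-0.90 to 0.33). ATG14, which directs that complex to autophagy, was at 3.19 to 9.40, 5.64 to 14.98 and 2.86 to 9.45 in flow cells A, B and C and was not tested.

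None of the 8 conjugation genes was called by limma, edgeR or DESeq2, and 2 had an unadjusted p under 0.05 (ATG5 higher and ATG4D lower). ATG5, which is joined to ATG12 in the conjugation complex, was the gene with higher values in flow cell A, at 51.2 in cat 11, 52.4 in cat 23, 42.9 in cat 30 and 40.7 in cat 31. It was at 25.9, 24.5, 33.9 and 34.7 in flow cell B and at 18.9, 33.3, 31.5 and 34.6 in flow cell C, so the groups did not overlap, but it did not pass the adjustment (log2 difference 0.66, SE 0.23, limma adjusted p = 0.108). Its partners ATG12 and ATG3 had log2 differences of 0.01 (95% interval -0.42 to 0.43) and 0.14 (-0.28 to 0.55), and ATG16L1, which completes the complex, 0.44. ATG4D was at 148, 349, 170.0 and 209 in flow cell A and at 240.3 to 510.4 in the others (log2 difference -0.68, SE 0.25, limma adjusted p = 0.129), and it was called only when cat 23, the highest library of flow cell A, was left out. The other proteases of the ATG8 cycle in the set, ATG4A and ATG4B, had log2 differences of -0.17 and -0.14. ATG7, the activating enzyme of the system, ran over a wide range on few reads (1 to 27 reads). It was at 1.34 to 4.79 in cats 23, 31, 36 and 37 and at 19.1 to 22.5 in cats 30, 10, 35, 22 and 38, which are spread over the 3 flow cells.

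In the ATG8 family, limma called none of 5 genes, 2 had an unadjusted p under 0.05 (MAP1LC3A and GABARAPL1, both lower), and DESeq2 called MAP1LC3A. MAP1LC3A was at 281, 302, 411 and 473 in flow cell A and at 412 to 1173 in the others (log2 difference -0.80, SE 0.25, limma adjusted p = 0.0753), so the lowest 2 of the 12 libraries were both in flow cell A. MAP1LC3B, the LC3 gene whose protein is the usual marker of autophagosomes, was at 193 in cat 11, 414 in cat 23, 424 in cat 30 and 172 in cat 31, at 299.9, 671, 434 and 302 in flow cell B and at 317, 319, 322 and 294 in flow cell C. Flow cell A held its 2 lowest libraries and 2 of its 4 highest, and the difference was -0.36 (adjusted p = 0.465). GABARAPL1 was lowest in cat 11 at 73.4, and the other 11 libraries were at 131 to 249 (log2 difference -0.53, SE 0.24, limma adjusted p = 0.214). GABARAP and GABARAPL2 differed least, at 0.01 (95% interval -0.37 to 0.39) and 0.05 (-0.38 to 0.49) on the log2 scale.

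All 5 cargo receptor genes had a negative log2 difference, and OPTN alone was called. SQSTM1 encodes p62, which links ubiquitinated protein to LC3, and was at 222 in cat 11, 492 in cat 23, 485 in cat 30 and 319 in cat 31, against 431 to 673 in the other 8 libraries (log2 difference -0.65, SE 0.22, limma adjusted p = 0.0925). Cats 11 and 31 were low and cats 23 and 30 were within the range of the others. The same pair of libraries was lowest for CALCOCO1, which was at 8.69 and 14.4 in cats 11 and 31 and at 29.6 and 45.5 in cats 23 and 30, the last being the highest of the 12. CALCOCO2, which encodes NDP52, a receptor for damaged mitochondria and bacteria, was at 43.9, 96.7, 127 and 54.2 in flow cell A and at 54.3 to 161 in the others. NBR1, a receptor that like p62 binds ubiquitin and LC3, was at 31.9, 39.0, 51.3 and 23.1 in flow cell A and at 31.1 to 69.4 in the others (log2 difference -0.46, SE 0.26, limma adjusted p = 0.316). The summed share of the 5 receptors was 0.0337% and 0.0417% of reads in cats 11 and 31 and 0.0577% to 0.0909% in the other 10 libraries.

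Of the 5 mitophagy genes, PINK1 was called and 4 had a negative difference. BNIP3, which encodes a mitophagy receptor of the outer membrane that is induced by hypoxia, was at 60.3 in cat 11, 180.0 in cat 23, 134 in cat 30 and 189 in cat 31, against 117 to 336 in the others (log2 difference -0.60, SE 0.30, limma adjusted p = 0.256). Cat 11 was lowest and cat 15 highest, 5.57-fold apart. Its relative BNIP3L (NIX) had the opposite sign (log2 difference 0.26, SE 0.26, limma adjusted p = 0.594) and was lowest in cat 37, at 24.3. FUNDC1 and FUNDC2 had log2 differences of -0.04 (95% interval -0.55 to 0.47) and -0.07 (-0.46 to 0.33).

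Of the 7 tested genes of the lysosome and of fusion with it, GAA and CTSD were called and 5 had a negative difference. CTSB, which encodes the cysteine protease cathepsin B, had a positive difference (log2 difference 0.38, SE 0.25, limma adjusted p = 0.393) and was at 471 in cat 11, 352 in cat 23, 239 in cat 30 and 451 in cat 31, against 204 to 470.3 in the others. In cat 11, CTSB was at the highest and CTSD at the lowest value of the 12 libraries. LAMP1 and LAMP2, abundant proteins of the lysosomal membrane, were both lowest in cat 11 (161 and 95.1) and had differences of -0.21 and -0.35. RAB7A, a small GTPase of fusion with the lysosome, was at 85.9 to 114 in flow cell A and 39.2 to 106 in the others (log2 difference 0.50, SE 0.25, limma adjusted p = 0.250). CTSA, the protective protein of lysosomal neuraminidase, had 0 reads in cats 23 and 22 and at most 12 in any library, so that the 95% interval of its difference was wide, -2.38 to 0.39 on the log2 scale. Neither CTSB nor RAB7A, the 2 with a positive difference, passed, and the summed share of the 7 genes overlapped between the groups (0.0833% to 0.139% against 0.0808% to 0.165%).

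TFEB encodes a transcription factor that turns on genes of autophagy and the lysosome. It was at 10.6 in cat 11, 21.5 in cat 23, 5.05 in cat 30 and 18.3 in cat 31, at 14.7, 19.1, 34.7 and 15.1 in flow cell B and at 17.6, 22.2, 28.6 and 22.06 in flow cell C (log2 difference -0.73, SE 0.36, limma adjusted p = 0.248). LRRK2, a kinase that acts on Rab GTPases of lysosomes, was at 28.5 in cat 11, 13.4 in cat 23, 14.3 in cat 30 and 12.0 in cat 31 in flow cell A. Flow cell B held 9.02 in cat 10, 20.4 in cat 15, 30.7 in cat 35 and 8.90 in cat 36, and flow cell C held 13.502 in cat 22, 5.54 in cat 29, 30.04 in cat 37 and 35.3 in cat 38. High and low libraries occurred on every flow cell, and the difference was -0.002 on the log2 scale with a 95% interval of -0.98 to 0.97 (limma adjusted p = 0.998). The gene was covered by 5 to 59 reads, and its observed CV was 54.8% against 23.5% from counting error.

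Flow cell B was compared with flow cell C as a difference between groups of the same size that had not been singled out. With 4 libraries against 4, this test could detect less than that of flow cell A, which set 4 against 8. The SE of PINK1 was 0.31 here and 0.27 there. None of the 39 genes was called, as was none of all 8715 tested genes (0%), and 0 of 39 had an unadjusted p under 0.05, against 7.87% of all tested genes. edgeR's quasi-likelihood test also called 0 of the 39. The smallest adjusted p of the set was 0.700, for BNIP3L, with 69.7 ± 10.0 in flow cell B and 51.9 ± 21.1 in flow cell C (SD, n = 4 each), and cats 37 and 29 of flow cell C held its 2 lowest values. PINK1 was at 797 ± 226 and 559 ± 206 (log2 difference 0.53, SE 0.31, limma adjusted p = 0.704). The median log2 difference of the 39 genes was 0.06, with 25 positive and 14 negative. This comparison and the one of flow cell A share the libraries of flow cells B and C.

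In further genes of the same pathways, the counts in flow cell A differed from list to list. Among 22 tested genes of nutrient sensing (mTORC1, AMPK and the Rag and Ragulator complexes of the lysosome), 16 of 22 were negative, with a median of -0.35. Of the 22, 2 were called lower and none higher, against 3.61% and 1.84% of all tested genes. The 2 called were LAMTOR2 and LAMTOR4, subunits of Ragulator. LAMTOR2 was at 237 to 337 against 352 to 729 (log2 difference -0.77, limma adjusted p = 0.0352). LAMTOR4 was at 47.0 to 64.6 against 68.7 to 98.0 (log2 difference -0.66, limma adjusted p = 0.0466). Neither gene overlapped between the groups, where 2.51% of all tested genes were separated in this direction. With a positive sign, RRAGC (log2 difference 0.48, adjusted p = 0.263) and PRKAB2 (log2 difference 0.43, adjusted p = 0.387) came first and did not pass.

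Among 29 tested genes of autophagy outside the set, the median was close to 0. Of the 29, 1 was called lower and none higher, against 3.61% and 1.84% of all tested genes. The gene called was PHB2, a prohibitin of the inner mitochondrial membrane and a mitophagy receptor. It was at 196 to 309 in flow cell A and 295 to 521 in the others (log2 difference -0.65, limma adjusted p = 0.049). With a positive sign, ATG4C (log2 difference 1.202, adjusted p = 0.131) and SNAP29 (log2 difference 0.62, adjusted p = 0.143) came first and were not called. Of 44 other lysosomal genes, limma called none, 24 were negative and the median was -0.03. An unadjusted p under 0.05 was found for 6 lower and 1 higher gene, against 22% of all tested genes. NPC2 (log2 difference -0.73, adjusted p = 0.0883), a cholesterol carrier of the lysosome, and NEU1 (log2 difference -1.11, adjusted p = 0.101), its sialidase, had the smallest adjusted p with a negative sign, and GLA (log2 difference 1.75, adjusted p = 0.0994) and HGSNAT (log2 difference 1.81, adjusted p = 0.239) with a positive sign, both on at most 17 reads. All 15 subunits of the vacuolar ATPase, the proton pump of the lysosome, were tested and limma called none, with 0 at an unadjusted p under 0.05 and log2 differences between -0.28 for ATP6V0C and 0.40 for ATP6V0A1. By adjusted p, ATP6V1F (-0.20) came after ATP6V0C on the negative side, and ATP6V0E1 (0.40) came before ATP6V0A1 on the positive side.

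Age was compared with the values of the 9 cats of known outcome that had one. None of the 39 genes was called by Spearman's rho, limma's slope, edgeR or DESeq2, as was none of all tested genes (0% in each). At an unadjusted p under 0.05, limma gave 4 of 39 genes, CALCOCO2, MAP1LC3B and CALCOCO1 with a positive slope and ATG4A with a negative one, against 4.6% of all tested genes, and the exact permutation of rho gave these 4 and BECN1, against 4.76%. The slopes of the 39 genes were positive in 22 and negative in 17, with a median of 0.01 log2 units per year, and the smallest adjusted p in the set was 0.955 (limma). CALCOCO2, MAP1LC3B, ATG4A and CTSA are named because they had the smallest unadjusted limma p in each direction in these same cats. CALCOCO1 and BECN1 were added after their values were seen. Genes named for fibrosis below were picked by the same rule, and p-values within flow cells are not adjusted for this choice. Relations of age and fibrosis with single genes were computed for all 8715 tested genes. Of these relations, 13 are described further, with cats set aside and flow cells centred. The adjusted p-values given are Benjamini-Hochberg values over all 8715 tested genes for each trait.

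MAP1LC3B had, from the youngest to the oldest cat, values of 302 in cat 36, 172 in cat 31, 193 in cat 11, 294 in cat 38, 299.9 in cat 10, 322 in cat 37, 414 in cat 23, 671 in cat 15 and 424 in cat 30. The 2 lowest values were in the cats ranked 2 and 3 by age, and the 3 highest in the 3 oldest. Over the 9 cats this gave a Pearson’s r of 0.782 and a Spearman’s rho of 0.817 (two-sided exact permutations, p = 0.0113 and 0.0108), or 0.962 and 0.816 after adjustment. Without the 2 cats farthest from the median age, r was 0.724 with cats 15 and 30 set aside and 0.929 with cats 30 and 36 set aside, and with every flow cell centred it was 0.915 (exact permutation within flow cells, p = 0.0208). CALCOCO2 had values in the same order of 54.3, 54.2, 43.9, 89.7, 96.9, 73.0, 96.7, 135 and 127. The 3 youngest cats held its 3 lowest values, which gave a Pearson’s r of 0.846 and a Spearman’s rho of 0.833 (two-sided exact permutations, p = 0.00568 and 0.00827), or 0.962 and 0.816 after adjustment. Without the farthest 2 cats r was 0.714 with cats 15 and 30 set aside and 0.788 with cats 30 and 36 set aside, and within flow cells it was 0.911 (exact permutation p = 0.0278).

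CALCOCO1, whose protein is a receptor related to NDP52, had values of 18.7, 14.4, 8.69, 24.3, 20.3, 20.03, 29.6, 31.3 and 45.5 from the youngest to the oldest. Its 3 highest values were in the 3 oldest cats, which gave a Pearson’s r of 0.818 and a Spearman’s rho of 0.867 (two-sided exact permutations, p = 0.00549 and 0.00451), or 0.962 and 0.802 after adjustment. Its r was 0.607 with cats 15 and 30 set aside and 0.779 with cats 30 and 36 set aside, and 0.851 within flow cells (exact permutation p = 0.0451). ATG4A, a protease that primes ATG8 proteins and frees them from the membrane, had values of 73.0, 64.6, 84.0, 77.2, 69.9, 50.1, 40.3, 54.5 and 26.9. Its 2 lowest values were in the cats ranked 9 and 7 by age, which gave a Pearson’s r of -0.883 and a Spearman’s rho of -0.767 (two-sided exact permutations, p = 0.00147 and 0.0214), or 0.867 and 0.851 after adjustment. Leaving out the farthest 2 cats gave r of -0.842 with cats 15 and 30 set aside and -0.797 with cats 30 and 36 set aside, and within flow cells it was -0.904 (exact permutation p = 0.0104). On the log2 scale of limma the slopes per year were 0.0830 (SE 0.0254) for MAP1LC3B, 0.0851 (0.0242) for CALCOCO2, 0.0961 (0.0304) for CALCOCO1 and -0.0816 (0.0233) for ATG4A, each with an adjusted p of 0.955.

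**Figure D5:**
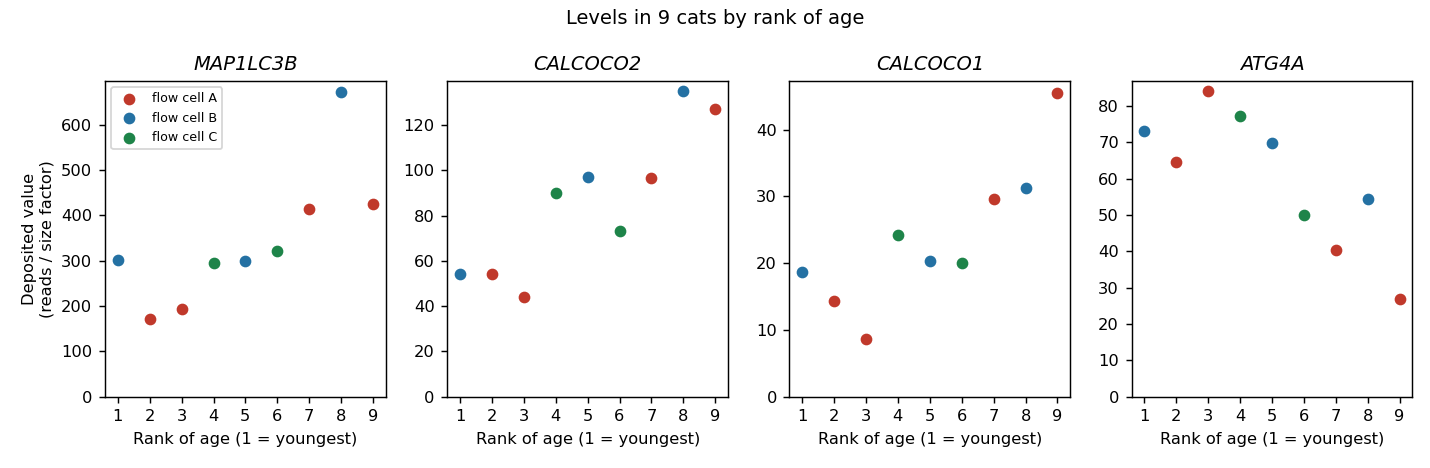
Deposited values (reads divided by a size factor) of MAP1LC3B, CALCOCO2, CALCOCO1 and ATG4A in 9 cats against the rank of age (1 is the youngest), coloured by flow cell. The 3 oldest cats hold the 3 highest values of MAP1LC3B and CALCOCO1, and ATG4A is lowest in the oldest cat at 26.9; none of the relations passed adjustment over all tested genes.

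Reads per library fell with age over the same 9 cats (r = -0.716, exact permutation p = 0.0308; rho = -0.700, exact permutation p = 0.0433), so depth moved with these values. With log2 reads on genes as a covariate, an alternative chosen after seeing the data, the slopes were 0.0644 (SE 0.0370) for MAP1LC3B, 0.0742 (SE 0.0357) for CALCOCO2, 0.0869 (SE 0.0451) for CALCOCO1 and -0.0826 (SE 0.0346) for ATG4A, and 4 of 39 genes had an unadjusted p under 0.05, against 234 (2.69%) of all tested genes, and ATG4A was shared with the fit without it. With flow cell as a covariate the slope of MAP1LC3B was 0.0901 (SE 0.0193) (limma adjusted p = 0.188) and 7 of 39 genes had an unadjusted p under 0.05, against 1010 of all 8715 tested genes in that fit, while no tested gene was called. BECN1 had a Pearson’s r of 0.607 and a Spearman’s rho of 0.700 (two-sided exact permutations, p = 0.085 and 0.0433), or 0.962 and 0.897 after adjustment, and its r was 0.968 with cats 15 and 30 set aside and 0.870 with cats 30 and 36 set aside, and 0.671 within flow cells (exact permutation p = 0.132). CTSA had a Pearson’s r of -0.525 and a Spearman’s rho of -0.433 (two-sided exact permutations, p = 0.140 and 0.250), its r was -0.729 with cats 15 and 30 set aside and -0.402 with cats 30 and 36 set aside, and centring of flow cells gave -0.585 (exact permutation p = 0.215). LRRK2 had a Pearson’s r of 0.0250 and a Spearman’s rho of 0.300 (two-sided exact permutations, p = 0.948 and 0.437), its r was 0.0843 with cats 15 and 30 set aside and -0.117 with cats 30 and 36 set aside, and centring of flow cells gave 0.107 (exact permutation p = 0.764).

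Myocardial fibrosis, the area of fibrous tissue as a percentage of fibrous tissue and cardiomyocytes away from the inner and outer border of the wall, was compared in the 8 cats that had a value. None of the 39 genes was called by either test, as was none of all tested genes (0%). At an unadjusted p under 0.05, limma gave 1 of 39 genes, ATG7, against 2.64% of all tested genes, and rho gave 1, FUNDC1, against 2.83%. The sign of rho was positive for 13 genes and negative for 25, with 1 at a rho of 0, while limma's slope was positive for 22 and negative for 17 (median 0.003 log2 units per percentage point), so the balance of signs depended on the measure, and the smallest adjusted p of the set was 0.9997 with limma and 1 with rho. edgeR and DESeq2 called 0 of the 39 genes. From the least to the most fibrosis, ATG7 had values of 21.3 in cat 35, 21.0 in cat 30, 19.1 in cat 38, 2.67 in cat 36, 22.5 in cat 10, 9.65 in cat 11, 8.17 in cat 15 and 1.34 in cat 23, on 1 to 27 reads. Its lowest value was in the cat with the most fibrosis, with a Pearson’s r of -0.612 and a Spearman’s rho of -0.643 (exact permutations, p = 0.0994 and 0.0962), with an r of -0.221 when cats 15 and 23 were set aside and of -0.576 when the flow cells of 7 cats were centred (exact permutation p = 0.278). The relation did not hold without cats 15 and 23, the 2 with the most fibrosis. FUNDC1, which is named after its values were seen, had a Pearson’s r of -0.471 and a Spearman’s rho of -0.738 (exact permutations, p = 0.232 and 0.0458), with an r of -0.937 when cats 15 and 23 were set aside and of -0.435 when the flow cells of 7 cats were centred (exact permutation p = 0.361). CTSA had a Pearson’s r of -0.540 and a Spearman’s rho of -0.476 (exact permutations, p = 0.155 and 0.243), with an r of -0.110 when cats 15 and 23 were set aside and of -0.684 when the flow cells of 7 cats were centred (exact permutation p = 0.132). With a positive sign, ATG4B had a Pearson’s r of 0.530 and a Spearman’s rho of 0.667 (exact permutations, p = 0.158 and 0.0831), with an r of 0.684 when cats 15 and 23 were set aside and of 0.532 when the flow cells of 7 cats were centred (exact permutation p = 0.368). OPTN had a Pearson’s r of 0.371 and a Spearman’s rho of 0.190 (exact permutations, p = 0.366 and 0.665), with an r of -0.161 when cats 15 and 23 were set aside and of 0.769 when the flow cells of 7 cats were centred (exact permutation p = 0.0694). LRRK2 had a Pearson’s r of -0.188 and a Spearman’s rho of -0.333 (exact permutations, p = 0.630 and 0.428), with an r of -0.251 when cats 15 and 23 were set aside and of -0.108 when the flow cells of 7 cats were centred (exact permutation p = 0.875). The limma slopes per percentage point were -0.227 (SE 0.100) for ATG7, -0.184 (0.112) for CTSA, 0.0739 (0.0544) for ATG4B, 0.0861 (0.0706) for OPTN and -0.0403 (0.0753) for LRRK2.

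The 3 cats with ATE were compared with the 6 cats with congestive HF, the contrast of outcomes that the study is about. None of the 39 genes was called by limma, as was none of all tested genes (0%), and 0 of 39 had an unadjusted p under 0.05, against 4.41% of all tested genes. edgeR and DESeq2 also called 0 of the 39 genes. The median log2 difference (ATE minus HF) of the 39 genes was 0.12, with 26 positive and 13 negative, against 0.002 over all tested genes. Flow cell A held 3 of the 6 cats with congestive HF and 1 of the 3 with ATE. The part of the flow cell in this balance of signs was not tested. With flow cell as a covariate, limma gave 0 of 39 genes an unadjusted p under 0.05, against 461 of all tested genes. In 1 of 39 genes, FUNDC2, all 3 cats with ATE lay above all 6 with congestive HF, and in none did they lie below, where 0.998% and 1.18% of all tested genes were separated in these directions.

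FUNDC2 encodes a protein of the outer mitochondrial membrane related to the mitophagy receptor FUNDC1, and was at 331, 310.3 and 373 in cats 10, 23 and 38 with ATE, and 204, 245 and 284 as the lowest, median and highest of the 6 cats with congestive HF. The cat without known cardiac death was at 278. On flow cell A it was 310.3 in the cat with ATE and 241, 225 and 284 in the cats with congestive HF, on flow cell B 331 and 204 and 248, and on flow cell C 373 and 269. Since every cat with ATE lay above every cat with congestive HF, the order within each flow cell follows from that separation and adds nothing to it. The difference did not pass the adjustment (log2 difference 0.47, SE 0.22, limma adjusted p = 0.960). LAMP1 was at 260.4, 319.7 and 281 in cats 10, 23 and 38 with ATE, and 161, 225 and 291 as the lowest, median and highest of the 6 cats with congestive HF (log2 difference 0.40, SE 0.25, limma adjusted p = 0.960), so the groups overlapped. WIPI2, a relative of WIPI1 that recruits the conjugation complex, was at 50.7, 22.8 and 40.4 in cats 10, 23 and 38 with ATE, and 26.9, 47.3 and 77.6 as the lowest, median and highest of the 6 cats with congestive HF (log2 difference -0.41, SE 0.36, limma adjusted p = 0.963). CTSB was at 204, 352 and 311 in cats 10, 23 and 38 with ATE, and 239, 353 and 471 as the lowest, median and highest of the 6 cats with congestive HF (log2 difference -0.26, SE 0.32, limma adjusted p = 0.979). Both genes with a negative sign had values of cats with ATE within the range of the cats with congestive HF. LRRK2 was at 9.02, 13.4 and 35.3 in cats 10, 23 and 38 with ATE, and 12.0, 24.4 and 30.7 as the lowest, median and highest of the 6 cats with congestive HF, at 8.90 in the cat without known cardiac death, and its difference of -0.36 had a 95% interval of -1.33 to 0.61 (limma adjusted p = 0.979). Across the 4 genes called between flow cells, the difference between outcomes was 0.54 for GAA, 0.69 for CTSD, 0.39 for PINK1 and 0.60 for OPTN, with adjusted p-values of 0.960, 0.960, 0.979 and 0.960 (limma). The part of the flow cell in these 4 differences was not tested.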

How the data were processed

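Left ventricular RNA of 12 cats was sequenced with the direct RNA kit of Oxford Nanopore, with 1 library per cat, and libraries were grouped by the flow cell in the labels. Outcome, age and fibrosis were read from the study's cohort list by cat number. The authors called bases with Guppy, kept reads of a quality score above 7, aligned them to the felCat9 genome by Minimap2 and assigned them to genes by FeatureCounts. The deposited signal of a gene is its reads over 1 size factor per library. This was recognised from the values, since all of them (100%) were integers once divided by the worth of 1 read (relative tolerance 1e-06), and the methods do not name the division.

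The filter on low values asked for 10 reads or more in 3 or more libraries among the 10 whose outcome is known. Differences and slopes were tested with limma 3.58.1 (intensity trend, two-sided) on log2(value + 1), which understates changes of genes with few reads, and adjusted by Benjamini-Hochberg over all tested genes. Spearman's rho and Pearson's r were tested two-sided by exact permutation of cats. edgeR 4.0.16 and DESeq2 1.42.0 were run on the recovered reads (all values were whole) as alternatives, beside other scalings, pseudocounts of 0.5 and 2, other filters, covariates and each cat left out. The tools were R 4.3.3, Python 3.11.15, scipy 1.17.1, pandas 2.3.3, numpy 2.4.6 and matplotlib 3.10.9, and the tests were tried on simulated data. With 1 library per cat, p-values cover the spread between cats and counting error together.

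The 41 genes, the lists by role and pathway and the contrasts were chosen with earlier results of these data known. The genes named are those called between flow cells, LRRK2, for each trait the 2 in each direction with the smallest unadjusted p, the 5 with the largest spread over counting error, those below the filter, and of each further list the 2 that came first by adjusted p on either side, apart from 1 that is not reported here. The other genes of the set are given by role. Age and fibrosis values were not reprinted, gene lengths and sequences were not used here, and nuclear and vascular measurements were not analysed here.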

Additional observations from a re-analysis of the deposited data

Results flagged for a closer look

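Dixon's ratio, the gap of 1 library to its nearest neighbour divided by the range of the group, was computed for the 21 genes named most fully. Among 84 groups of 4 or 6 libraries, 4 had a ratio above its 95% critical value. Chance gives about 1 in 20, so the count is near that share. LRRK2 was at 28.5 in cat 11 (59 reads), while the other 3 libraries of flow cell A were at 12.0 to 14.3. MAP1LC3B was at 294 in cat 38, while the other 3 libraries of flow cell C were at 317 to 322, a narrow range. ATG4A was at 77.2 in cat 38, while the other 3 were at 45.4 to 50.1. ATG14, which was not tested, was at 14.98 in cat 15 (11 reads), while the other 3 libraries of flow cell B were at 5.64 to 7.12.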

How the results depend on the processing

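Between flow cell A and the others, the number of the 39 genes called lower was 4 in the fit described and 2 with edgeR, with all genes that had a read, without the 2 libraries of unknown outcome and with log2 reads as a covariate, 0 among cats with congestive HF, and 0 to 5 when 1 cat was left out (0 without cat 11, 1 without cat 31). No setting called a gene of the set higher or turned the sign of GAA, CTSD, PINK1 or OPTN. Over all tested genes, 315 lower and 160 higher calls became 500 and 340 with DESeq2, 166 and 96 without the 2 libraries of unknown outcome and 0 and 1 among cats with congestive HF, 196 lower with all genes that had a read, and 36 to 359 lower and 11 to 193 higher when 1 cat was left out. The cause was not tested, beyond the fewer cats and the larger number of genes in some of these fits. Between flow cells B and C, leaving out 1 cat gave 0 to 2 lower and 0 to 1 higher calls over all genes, and between ATE and congestive HF it gave 0 to 1 higher, as did DESeq2 with 1. None of these was a gene of the set. LRRK2 was close to 0 and changed sign between flow cells with TMM scaling (0.00196) and a pseudocount of 0.5 (0.00475), with -0.27 to 0.17 when 1 cat was left out. Its age slope changed sign with edgeR (-0.0121) and DESeq2 (-0.0123), with -0.0280 to 0.0224 when 1 cat was left out, and its difference between outcomes ranged from -0.89 to 0.0367, the latter without cat 10. With myocardial fibrosis, the exact permutation of rho gave 0 to 5 of the 39 genes an unadjusted p under 0.05 when 1 cat was left out. The count over all tested genes was not kept for these fits, so the range cannot be set against it. By limma's slope, that count was 395 without cat 15, with 3 of the 39 genes, and 188 without cat 36, with 1. No paired analysis was possible because each cat gave 1 library on 1 flow cell. The 39 genes had from 0 to 1261 reads per library, which limits what could be detected for those with few.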
